A study of Rattus norvegicus with 48 samples.

Results

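The expression of 40 cell cycle genes was followed in the lungs of rats that had breathed filtered air or a mixture of mineral dust and diesel particles. They were chosen by name as genes of mitosis and of DNA replication, with earlier results of these lungs known. A gene counted as measured where its name had a row in the deposited tables. Of the 40 genes, 39 had a row among 32285 gene identifiers, 28 of them acting in mitosis and 11 in DNA replication. The cyclin gene Ccnb2 was not analysed here. All 39 passed the filter on low counts on every day.

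The 48 animals were male Sprague-Dawley rats, all kept in whole-body inhalation chambers for 6 h per day on 4 days. Controls breathed filtered air, and exposed animals breathed 30 mg/m3 of fracking sand dust, the mineral dust that comes off sand handled at gas wells, together with 1.0 mg/m3 of diesel particles. Lungs were taken 1, 7 or 27 days later, which gave 6 groups of 8 animals: air and exposed lungs at each of the 3 times. Lungs are numbered 1 to 8 within a group, in the order of the animal numbers. Polyadenylated RNA of whole lung tissue was sequenced. The ages of the animals are not given in the sources used here, and the rats were housed in pairs that the labels do not name.

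A cell that divides copies its DNA in S phase and separates the copies in mitosis. The MCM helicase and the PCNA clamp serve the copying, and ribonucleotide reductase, thymidylate synthase and thymidine kinase supply its nucleotides. Cyclin A and cyclin B with the kinase Cdk1 then drive entry into mitosis, where kinesin motors build the spindle, a checkpoint holds the cell until every chromosome is attached, and the anaphase-promoting complex lets the chromosomes part before cytokinesis splits the cell. Transcripts of the mitosis genes are made mostly in late S phase, G2 and mitosis, so they are commonly read as markers of dividing cells. In a healthy adult lung few cells divide at a given time. In RNA from whole tissue, fewer cells of a type and less RNA per cell cannot be told apart.

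Summed expected counts ran from 9445675 to 14400317 per library, with a median of 12004516. Lung cell markers, taken from lists, were present in all libraries: the summed level of 8 genes of alveolar type 2 cells was at least 16701 CPM, the count scaled to a common library size, and that of 7 endothelial genes at least 5228 CPM. Of the 9 alveolar macrophage genes with a row, only Marco was at 0 in every library of some groups. In 4 pairs of libraries of the same group the counts lay closer together (1.44 to 1.67 times counting noise) than in the other 164 pairs (at least 2.40 times). They were exposed lungs 1 and 4 of day 1, air lungs 1 and 4 of day 7, exposed lungs 3 and 6 of day 7 and air lungs 3 and 6 of day 27. All libraries were kept. The numbers of cell cycle genes and of all genes called were also taken with these pairs summed into 1 library each. Counts for the other lists, for groups that did not overlap and for single lungs were not. All CPM values are scaled by the TMM factors of all 48 libraries, and log2 CPM has a prior count of 2 added.

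The mean level of the cell cycle genes was higher at days 1 and 7 than at day 27, in air and in exposed lungs. The mean log2 CPM of the 39 genes in a lung was 3.52 ± 0.27 (SD, n = 8) in air and 3.53 ± 0.17 in exposed lungs at day 1. It was 3.59 ± 0.10 in air and 3.42 ± 0.15 in exposed lungs at day 7, and 3.03 ± 0.089 and 3.03 ± 0.13 at day 27. All 8 air lungs of day 27 lay below every air lung of day 7, and 7 of the 8 exposed lungs of day 27 lay below every exposed lung of day 7. Against day 1 the groups overlapped: 5 of the 8 air lungs of day 27 lay below every air lung of day 1. In exposed lungs 7 of the 8 did so. At day 7, 6 of the 8 exposed lungs lay below every air lung, and 4 of 8 did so when Aurkb was left out of the mean. At days 1 and 27 the air and exposed lungs overlapped, with differences of the means of 0.0047 and -0.00078. No test was made on this mean, since the genes were chosen as a group with earlier results of these lungs known.

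**Figure D1:**
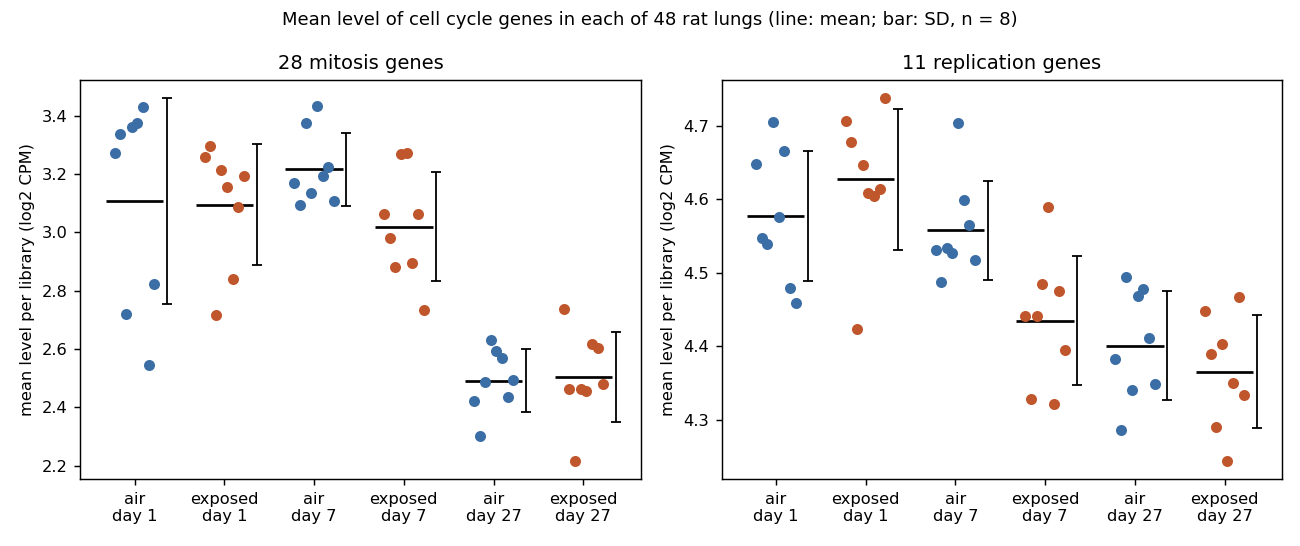
Mean log2 CPM per lung over the 28 mitosis genes (left) and the 11 replication genes (right), by group. Each point is 1 lung, the line is the mean of 8 lungs and the bar the SD, and the vertical axes do not start at 0. The mitosis genes averaged 3.22 in air at day 7 and 2.49 in air at day 27, while the replication genes averaged 4.56 and 4.40.

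The mitosis genes carried most of that difference. Their mean went from 3.22 in air at day 7 to 2.49 in air at day 27, a difference of -0.72, and from 3.02 to 2.50 in exposed lungs, a difference of -0.52. The replication genes went from 4.56 to 4.40 in air, a difference of -0.16, and from 4.43 to 4.37 in exposed lungs, a difference of -0.069. In the air lungs of day 1 the mitosis mean was spread more widely than in any other group (SD 0.35), from 2.54 in lung 7 to 3.43 in lung 6.

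**Figure D2:**
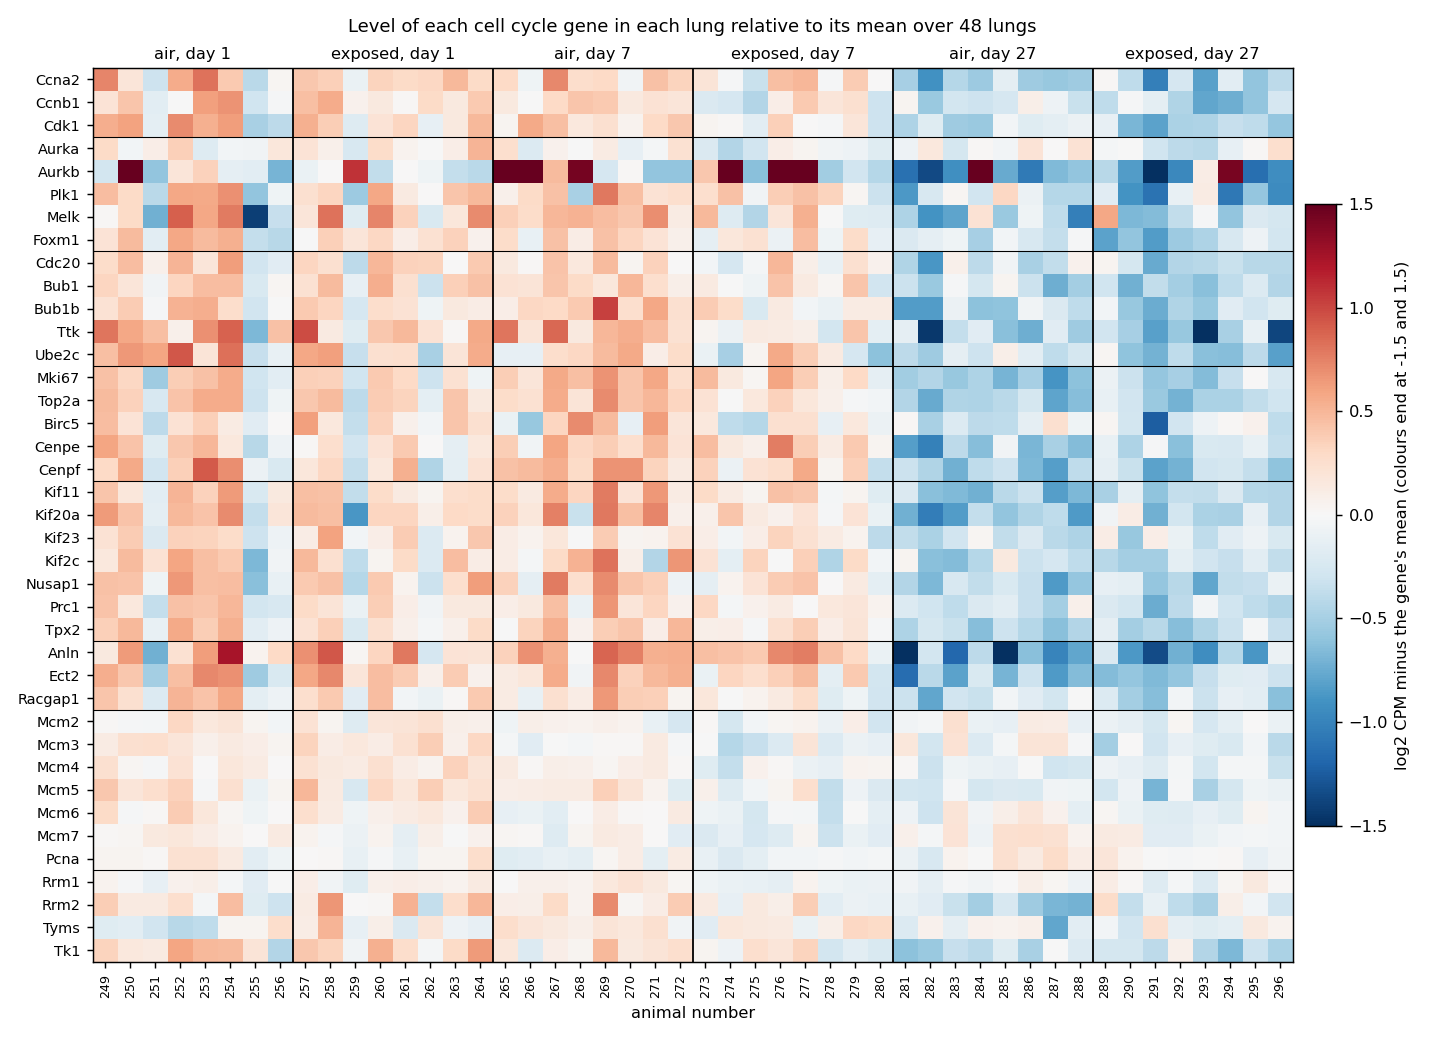
Level of each of the 39 genes (rows, ordered by role) in each of the 48 lungs (columns, by group and in the order of animal numbers), as log2 CPM minus the mean of that gene over the 48 lungs. The scale of colours is clipped at both ends. Most mitosis rows are red in air at day 7, mixed in the exposed lungs of day 7 and at day 1, and blue at day 27, the rows of Mcm2 to Pcna and of Rrm1 and Tyms are mostly pale, and Aurkb is darkest in 9 lungs spread over 5 groups.

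The study asked what the exposure did to the lung at each time, and each day was tested by itself. At day 1 no cell cycle gene was called by edgeR, at an adjusted p under 0.05, in a comparison that called 0.0279% of all 14314 genes tested. Of the 39 genes, 21 had a log2 fold change of exposed over air below 0 (49.1% of all genes), and none had an unadjusted p under 0.05 (8.67% of all genes). DESeq2 called none either. The median over the genes was -0.010, and over all genes 0.0019. The proliferation marker Mki67, a coat protein of mitotic chromosomes, ran from 23.6 to 50.1 CPM with a median of 43.2 in air and from 27.5 to 44.98 CPM with a median of 41.03 in exposed lungs. The groups overlapped over most of their range, and the log2 fold change was -0.041 ± 0.16 (SE), with a 95% interval of -0.39 to 0.31. Top2a, the topoisomerase that untangles chromosomes, was at 21.2 to 38.6 CPM (median 34.4) in air and 19.9 to 36.6 CPM (median 33.6) in exposed lungs, with a log2 fold change of -0.023 ± 0.15 and a 95% interval of -0.35 to 0.30. These intervals are wide beside the differences, and the mitosis mean of the air lungs of day 1 was 2.54 to 2.82 in lungs 3, 7 and 8 and 3.27 to 3.43 in the other 5. Without exposed lung 3 the log2 fold changes of Mki67 and Top2a were 0.012 and 0.047, so their sign at day 1 rested on single lungs.

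Of the day 1 differences, the 6 with the smallest p were in Mcm7, Tyms, Mcm4, Cenpf, Mcm3 and Rrm1. The helicase subunit Mcm7 had a log2 fold change of -0.075 ± 0.042 (adjusted p = 0.633, edgeR), Mcm4 of 0.087 ± 0.053 and Mcm3 of 0.076 ± 0.056. The thymidylate synthase gene Tyms stood at 0.19 ± 0.11 (adjusted p = 0.676), Rrm1, the large subunit of ribonucleotide reductase, at 0.062 ± 0.050, and the kinetochore gene Cenpf at -0.25 ± 0.18. No cell cycle gene separated the groups (0.0768% of all genes). Cdk1 stood at -0.081 ± 0.18, Ccnb1, its cyclin B partner, at 0.053 ± 0.15, Mcm2 at 0.029 ± 0.067, the clamp gene Pcna at -0.039 ± 0.058 and Rrm2, the small subunit of ribonucleotide reductase, at 0.13 ± 0.14.

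At day 7 the cell cycle genes were on the low side of air in exposed lungs, by small amounts. Of the 39 genes 38 had a log2 fold change below 0, against 50.3% of all 14259 genes, with a median of -0.17 against -0.0008. No gene was called by edgeR (0% of all genes), 12 cell cycle genes had an unadjusted p under 0.05 (8.47% of all genes), all 12 lower (4.15% of all genes), and DESeq2 called 1, Rrm1. No gene of the 39 had groups that did not overlap (0.0421% of all genes). The kinase gene Aurkb was the 1 gene above 0, at 0.093 ± 0.56. Leaving out each lung in turn gave 36 to 39 genes below 0 and 7 to 17 with an unadjusted p under 0.05, the fewest without air lung 5 and the most without exposed lung 5. With the close pairs summed the counts were 37 and 10. The genes varied together from lung to lung, so these counts are not 39 separate observations.

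Rrm1 had the smallest p at day 7. It ran from 55.6 to 64.2 CPM with a median of 58.4 in air and from 50.6 to 57.4 CPM with a median of 51.7 in exposed lungs. All exposed lungs but lung 5 lay below the lowest air lung, and the log2 fold change was -0.17 ± 0.038 (adjusted p = 0.227 by edgeR and 0.0278 by DESeq2). Top2a ran from 29.98 to 43.05 CPM with a median of 33.9 in air and from 25.5 to 33.2 CPM with a median of 28.5 in exposed lungs, with 6 of 8 exposed lungs below every air lung and a log2 fold change of -0.29 ± 0.075 (adjusted p = 0.308). Ttk, a kinase of the spindle checkpoint, ran from 2.44 to 4.09 CPM with a median of 3.11 in air and from 1.78 to 2.98 CPM with a median of 2.29 in exposed lungs, with 7 of 8 exposed lungs below every air lung and a log2 fold change of -0.46 ± 0.15 (adjusted p = 0.446). Cdk1, the kinase that starts mitosis, was at 10.8 to 15.6 CPM (median 12.5) in air and 8.36 to 13.4 CPM (median 10.5) in exposed lungs, 6 of which lay below every air lung. Its log2 fold change was -0.26 ± 0.096 (adjusted p = 0.474).

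Every role had a median on the low side at day 7. Mcm7 had a log2 fold change of -0.16 ± 0.056 (adjusted p = 0.463, edgeR) and the checkpoint kinase gene Bub1b one of -0.34 ± 0.13 (0.508). All 8 exposed lungs lay below the air mean for Bub1b and 7 of 8 for Mcm7. Mki67 ran from 38.6 to 54.8 CPM with a median of 46.2 in air and from 30.9 to 51.4 CPM with a median of 39.9 in exposed lungs (log2 fold change -0.19 ± 0.096, 95% interval -0.39 to 0.0085). Ccnb1 stood at -0.24 ± 0.13, Rrm2 at -0.20 ± 0.11, Mcm2 at -0.046 ± 0.066 and Pcna at -0.020 ± 0.051. The remaining genes of the 12 with an unadjusted p under 0.05 were Mcm4, Melk, Cenpf, Kif11, Racgap1 and Kif20a. By role, the medians were -0.24 for the 3 cyclin and Cdk1 genes, -0.13 for the 4 mitotic kinase genes and Foxm1, -0.23 for the 5 checkpoint genes, -0.26 for the 5 chromosome and kinetochore genes, -0.21 for the 7 spindle genes, -0.20 for the 3 cytokinesis genes, -0.13 for the 7 helicase and clamp genes and -0.15 for the 4 nucleotide genes. Alveolar macrophage markers also stood on the low side at day 7 (median log2 fold change -0.18 over 8 genes, 0 called, summed level 326 to 404 CPM in exposed and 361 to 477 CPM in air lungs), as did all 8 alveolar type 2 markers (median -0.11, 0 called). Neutrophil markers (median 0.27 over 7 genes, 0 called) and all 5 red cell precursor markers (median 0.22, 0 called) stood on the high side. Of the other lists, B cell markers had 7 of 8 genes above 0 and fibroblast markers 5 of 6. Airway markers had 3 of 3 below 0, heart muscle markers 4 of 5 and germinal centre B cell markers 3 of 4. Endothelial markers had 5 of 7 below 0, alveolar type 1 markers 4 of 6 and T cell markers 5 of 8. Their part in the cell cycle values was not tested.

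**Figure D3:**
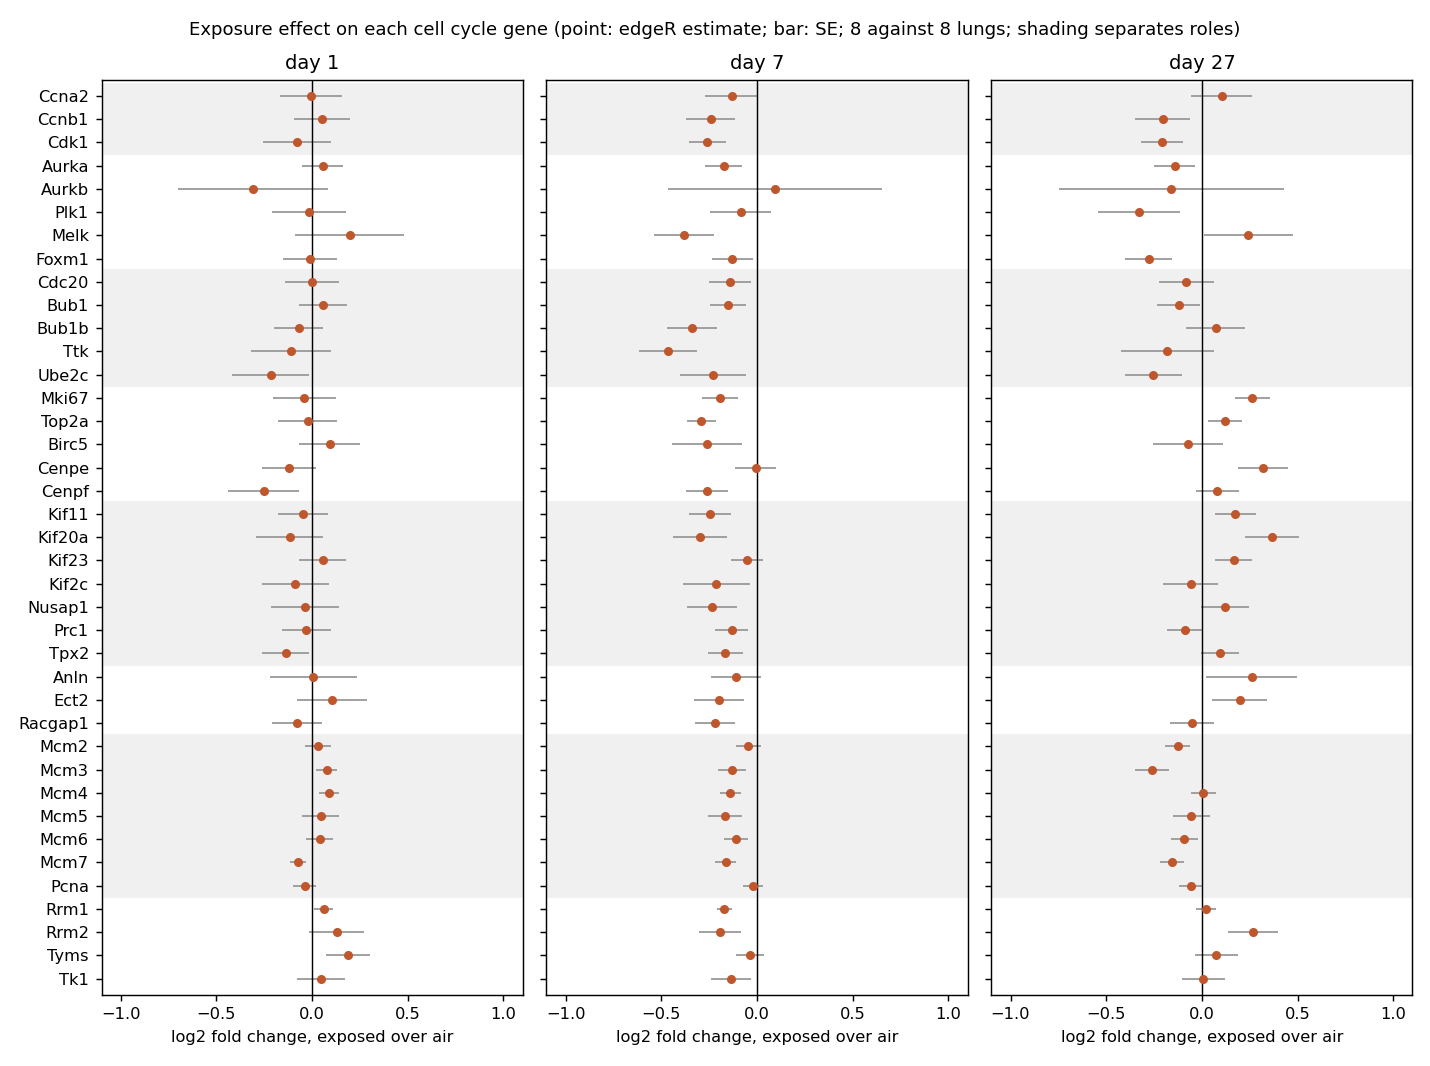
Log2 fold change of exposed over air for each of the 39 genes (rows, shaded by role) at day 1, day 7 and day 27. Points are edgeR estimates from 8 against 8 lungs and bars are SE. At day 7 every point but that of Aurkb lies left of 0, at day 1 the points lie on both sides, and at day 27 the points of Mcm3, Mcm7 and Foxm1 lie left and those of Mki67, Kif20a and Cenpe right.

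At day 27 no cell cycle gene was called for the exposure by edgeR, which called 5.52% of all 14192 genes, 783 in number. That total was unstable: it was 31 with close pairs summed and 9 to 1926 with each lung left out in turn (9 without exposed lung 3, 1926 without air lung 2). Of the 39 genes, 6 had an unadjusted p under 0.05 (26.7% of all genes), 3 of them lower (14.3% of all genes) and 3 higher. DESeq2 called Mcm3 lower and Mki67 higher, and the fit of all 48 libraries called Mcm3 and Mcm7 lower. Leaving out air lung 2 or exposed lung 2 brought Mcm3 past the threshold in edgeR (adjusted p 0.0326 and 0.0464). Of the 39 genes 20 were below 0 (52% of all genes), with a median of -0.051. Mcm3 ran from 16.9 to 23.7 CPM with a median of 21.6 in air and from 14.3 to 20.5 CPM with a median of 17.6 in exposed lungs, a log2 fold change of -0.26 ± 0.089 (adjusted p = 0.0823, edgeR). Mki67 ran from 18.4 to 25.1 CPM with a median of 23.3 in air and from 21.6 to 34.2 CPM with a median of 27.1 in exposed lungs, on the other side of 0 at 0.26 ± 0.091 (adjusted p = 0.0848). The 2 genes thus stood on opposite sides, and their groups overlapped, as did those of every cell cycle gene at day 27 (0.451% of all genes did not overlap).

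The remaining genes with an unadjusted p under 0.05 at day 27 were the kinesin genes Kif20a and Cenpe on the high side and Mcm7 and Foxm1 on the low side. Kif20a had a log2 fold change of 0.37 ± 0.14 (adjusted p = 0.115) and Cenpe one of 0.32 ± 0.13 (0.132). Mcm7 stood at -0.16 ± 0.061 (0.117) and Foxm1, a transcription factor of the G2 and M phase genes, at -0.28 ± 0.12 (0.162). Top2a stood at 0.12 ± 0.089, Ccnb1 at -0.21 ± 0.14, Cdk1 at -0.21 ± 0.11, Mcm2 at -0.13 ± 0.065, Pcna at -0.057 ± 0.064 and Rrm2 at 0.27 ± 0.13. Among B cell markers 2 of 8 fell and 0 rose in the same exposed lungs (summed level 89.8 to 143 CPM against 109 to 263.5 CPM in air), and among alveolar macrophage markers 2 of 8 fell and 0 rose (368 to 416 CPM against 343 to 577 CPM). Over all genes 3.33% were called lower. Endothelial markers had 2 of 7 lower, airway markers 1 of 3, germinal centre B cell markers 1 of 4, and fibroblast markers 1 of 6 higher. Their part in these values was not tested.

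Whether the exposure effect itself differed between days was tested as a contrast in 1 fit of the 48 libraries. EdgeR called 0 of the 39 genes for day 7 against day 1 (0% of all 14852 genes), 0 for day 27 against day 1 (0.498%) and 0 for day 27 against day 7 (0.0202%), and DESeq2 also called 0 in each. At an unadjusted p under 0.05 there were 2, 3 and 7 genes (7.5%, 14.6% and 14.9% of all genes), and the 7 were Bub1b, Mki67, Top2a, Kif11, Kif20a, Rrm1 and Rrm2, all with a higher effect at day 27 than at day 7. Without air lung 2, 1 cell cycle gene was called for day 27 against day 1. These contrasts share groups: the lungs of day 7 enter the first and the third, those of day 27 the second and the third.

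More of the genes were called between day 27 and the earlier days than between exposed and air lungs. The calls between days came from the fit of all 48 libraries, and those for the exposure from a fit of each day. For the exposure at day 27, the fit of all 48 libraries called 2 of the 39 genes. Between days 7 and 27 in air, 32 of the 39 genes fell and 0 rose, where edgeR called 39.7% of all genes and 19.7% lower. The median was -0.53 against 0.018 over all genes. In exposed lungs 21 of the 39 fell and 0 rose between the same days (12.1% of all genes called, 5.69% lower), with a median of -0.46. Between days 1 and 27 in air 28 fell and 0 rose (17.6% of all genes, 8.45% lower), and in exposed lungs 30 fell and 0 rose (11.5% of all genes, 5.65% lower), with medians of -0.53 and -0.51. The contrasts with day 7 and with day 1 share the lungs of day 27. Between days 1 and 27, 26 genes fell in both air and exposed lungs, 26 of the 28 in air and 26 of the 30 in exposed lungs. Each day is a table of its own and the animals of day 27 were killed later, so the time after exposure, the age of the animals and the table cannot be told apart.

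The earlier interval was different. From day 1 to day 7 edgeR called 0 of the 39 genes in air (8.32% of all genes), with 4 at an unadjusted p under 0.05 (26% of all genes) and 0 called by DESeq2. In exposed lungs it called 3 lower and 0 higher (2.14% of all genes, 1.16% lower), all of them subunits of the MCM helicase. Mcm3 ran from 21.5 to 26.3 CPM with a median of 23.4 at day 1 and from 15.1 to 23.3 CPM with a median of 18.2 at day 7 in exposed lungs, a log2 difference of -0.36 ± 0.074 (adjusted p = 0.0108, edgeR). Mcm4 differed by -0.25 ± 0.056 (0.0138) and Mcm6 by -0.27 ± 0.068 (0.0316), the last of which was not called with the close pairs summed (adjusted p = 0.0759) or without exposed lung 1, 6 or 8 of day 1 or exposed lung 3 or 6 of day 7 (adjusted p 0.0558 to 0.0872). Leaving out each lung in turn gave 2 to 5 genes, the most without exposed lung 5. In air over the same interval, Mcm3 stood at -0.15 ± 0.074, Mcm4 at -0.024 ± 0.056 and Mcm6 at -0.12 ± 0.068, and the difference between air and exposed lungs was not called for any of them.

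**Figure D4:**
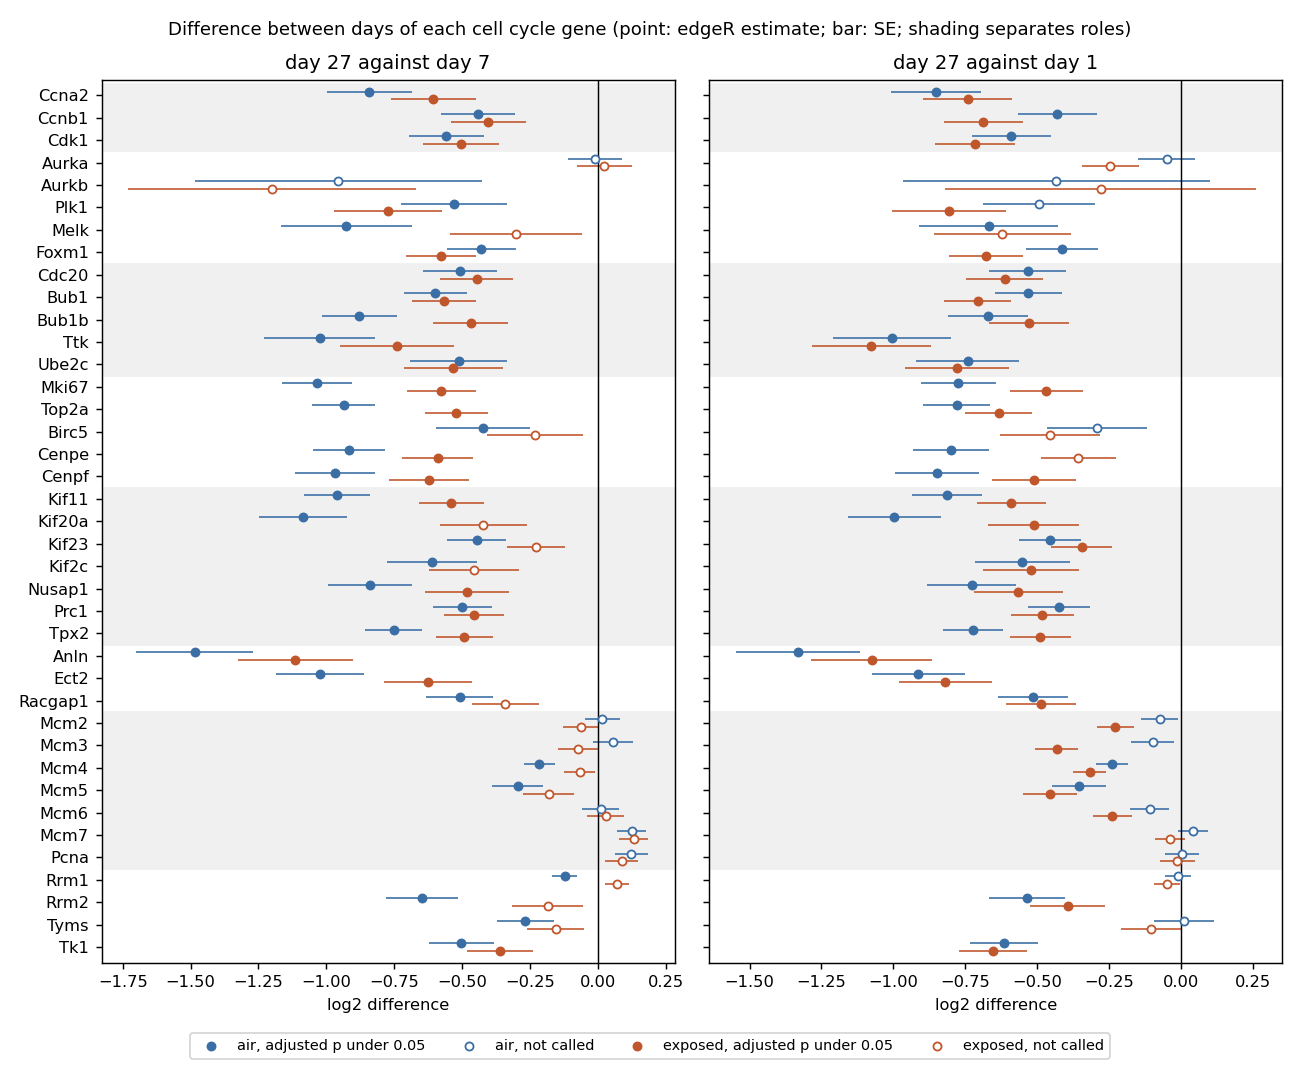
Log2 difference between days for each of the 39 genes (rows, shaded by role), day 27 against day 7 (left) and day 27 against day 1 (right), in air (blue) and exposed (orange) lungs. Points are edgeR estimates, bars are SE, and filled points have an adjusted p under 0.05. In air, Anln lies lowest against day 7 at -1.48, most other mitosis genes lie between -1.08 and -0.42, and Aurka, Mcm2, Mcm3 and Mcm6 lie near 0.

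The cyclins and their kinase were lower at day 27 in all 4 comparisons. Ccna2, cyclin A, which acts in S phase and G2, ran from 4.22 to 7.42 CPM with a median of 5.48 in air at day 7 and from 2.28 to 3.99 CPM with a median of 2.998 at day 27, without overlap, and fell by 0.84 ± 0.16 on the log2 scale (adjusted p = 5.06e-05, edgeR). In exposed lungs it fell by 0.61 ± 0.16. Cdk1 ran from 10.8 to 15.6 CPM with a median of 12.5 at day 7 and from 6.999 to 10.1 CPM with a median of 9.14 at day 27 in air, again without overlap, and its log2 difference was -0.56 ± 0.14 in air and -0.50 ± 0.14 in exposed lungs. Ccnb1, cyclin B, was at 4.31 to 5.81 CPM (median 4.97) and 2.88 to 4.57 CPM (median 3.56) in air at the same days. Its groups overlapped, with a log2 difference of -0.44 ± 0.14 (adjusted p = 0.00882).

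Most chromosome and kinetochore genes differed by more than the cyclins in air. Mki67 ran from 38.6 to 54.8 CPM with a median of 46.2 in air at day 7 and from 18.4 to 25.1 CPM with a median of 23.3 at day 27. Every lung of day 27 was below every lung of day 7, and the log2 difference was -1.03 ± 0.13 (adjusted p = 5.4e-08, edgeR). In exposed lungs Mki67 ran from 30.9 to 51.4 CPM with a median of 39.9 at day 7 and from 21.6 to 34.2 CPM with a median of 27.1 at day 27, a log2 difference of -0.58 ± 0.13 (adjusted p = 0.00213). Top2a ran from 15.1 to 21.7 CPM with a median of 19.03 in air at day 27 and fell by 0.94 ± 0.12 from day 7 in air and by 0.52 ± 0.12 in exposed lungs. Of the 39 genes only Top2a and the microtubule genes Tpx2 and Prc1 and the kinesin gene Cenpe had every exposed lung of day 27 below every exposed lung of day 7. Cenpe, which carries chromosomes along microtubules, and Cenpf, a protein of the kinetochore, had log2 differences of -0.92 ± 0.13 and -0.97 ± 0.15 in air. Birc5, the survivin gene of the chromosomal passenger complex, differed least of this group, by -0.42 ± 0.17 in air (adjusted p = 0.0483) and -0.23 ± 0.18 in exposed lungs, where it was not called.

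All 7 spindle genes fell between days 7 and 27 in air and 4 of 7 in exposed lungs. Kif11, the kinesin that pushes the spindle poles apart, ran from 10.4 to 16.6 CPM with a median of 11.8 in air at day 7 and from 5.32 to 8.22 CPM with a median of 6.09 at day 27, without overlap (log2 difference -0.96 ± 0.12, adjusted p = 5.66e-08, edgeR). Tpx2, which activates Aurora A on the spindle, ran from 8.54 to 12.6 CPM with a median of 11.01 and from 5.46 to 7.15 CPM with a median of 6.32 at these days (log2 difference -0.75 ± 0.11). It was also without overlap against day 1 in air. Kif20a, a kinesin of the central spindle, had the largest difference of the group in air, -1.08 ± 0.16, and was not called in exposed lungs (-0.42 ± 0.16, adjusted p = 0.0746). Nusap1, which bundles spindle microtubules, differed by -0.84 ± 0.15 in air, and Prc1, which crosslinks the central spindle, by -0.50 ± 0.11. Kif2c, a kinesin that shortens microtubules, differed by -0.61 ± 0.17 and Kif23, a partner of Racgap1 in the central spindle, by -0.45 ± 0.11.

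The 3 cytokinesis genes had the lowest median of the roles in air, -1.02. Anln, which organises actin in the cleavage furrow, ran from 4.59 to 8.56 CPM with a median of 6.77 in air at day 7 and from 1.19 to 3.77 CPM with a median of 2.43 at day 27, the largest difference of the 39 genes (log2 difference -1.48 ± 0.22, adjusted p = 1.08e-06, edgeR). In exposed lungs it differed by -1.11 ± 0.21 (adjusted p = 0.000367). Ect2, which switches on RhoA at the furrow, differed by -1.02 ± 0.16 in air and -0.63 ± 0.16 in exposed lungs. Racgap1, its partner, differed by -0.51 ± 0.12 in air and by -0.34 ± 0.12 in exposed lungs, the latter not called. The difference of these changes between air and exposed lungs was not called for Anln (0.37 ± 0.30).

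The 5 checkpoint and anaphase-promoting complex genes fell in all 4 comparisons with day 27. Bub1, a checkpoint kinase, was at 11.4 to 15.2 CPM (median 12.6) in air at day 7 and 6.41 to 10.99 CPM (median 8.55) at day 27, with log2 differences of -0.60 ± 0.12 in air and -0.56 ± 0.12 in exposed lungs. Bub1b differed by -0.88 ± 0.14 in air and -0.47 ± 0.14 in exposed lungs, and Ttk by -1.02 ± 0.20 and -0.74 ± 0.21. For these 3 genes the air lungs of days 7 and 27 did not overlap. Cdc20, which activates the anaphase-promoting complex, differed by -0.51 ± 0.13 in air, and Ube2c, the enzyme that hands it ubiquitin, by -0.51 ± 0.18.

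The mitotic kinases were divided. Plk1, Melk and the transcription factor Foxm1 fell in air between days 7 and 27, by 0.53 ± 0.20, 0.93 ± 0.24 and 0.43 ± 0.13 on the log2 scale. In exposed lungs Plk1 and Foxm1 fell, by 0.77 ± 0.20 and 0.58 ± 0.13, while Melk stood at -0.30 ± 0.24 and was not called. Aurka, Aurora A of the spindle poles, was called in none of the 4 comparisons. It was at 6.65 to 9.22 CPM (median 7.86) in air at day 7 and 6.39 to 9.004 CPM (median 7.74) at day 27, a log2 difference of -0.011 ± 0.10 with a 95% interval of -0.21 to 0.19. Aurkb, Aurora B of the passenger complex, was called in none either, with a log2 difference of -0.96 ± 0.53 and an interval of -2.02 to 0.11.

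The replication genes moved less and not all in the same direction. Of the 7 helicase and clamp genes, Mcm4 and Mcm5 fell in air between days 7 and 27, by 0.21 ± 0.057 and 0.29 ± 0.094, and none did so in exposed lungs. Mcm7 had a log2 difference of 0.13 ± 0.053 (adjusted p = 0.0555, edgeR) and Pcna one of 0.12 ± 0.060 (0.0964), both on the high side and not called. Pcna ran from 60.8 to 75.3 CPM with a median of 63.3 in air at day 7 and from 58.5 to 83.7 CPM with a median of 73.3 at day 27, and the groups overlapped. Mcm2 stood at 0.017 ± 0.066, with a 95% interval of -0.12 to 0.15, Mcm3 at 0.055 ± 0.074 and Mcm6 at 0.011 ± 0.069. Against day 1, exposed lungs of day 27 had 5 of the 7 lower, all but Mcm7 and Pcna, where air lungs had Mcm4 and Mcm5 lower. Mcm3 and Mcm4 were without overlap in that comparison.

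All 4 nucleotide genes fell in air between days 7 and 27. Rrm2, the subunit whose level follows S phase, ran from 7.16 to 11.5 CPM with a median of 7.57 at day 7 and from 4.23 to 6.48 CPM with a median of 5.22 at day 27, without overlap (log2 difference -0.65 ± 0.13, adjusted p = 0.000163, edgeR). Its partner Rrm1 ran from 55.6 to 64.2 CPM with a median of 58.4 and from 50.5 to 58.9 CPM with a median of 53.9 at the same days, a log2 difference of -0.12 ± 0.045 that was called with an adjusted p of 0.0286. The subunits thus differed in size of change. Tk1, thymidine kinase, fell in all 4 comparisons, by 0.50 ± 0.12 from day 7 in air, and Tyms fell by 0.27 ± 0.10 in this comparison only.

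In all, 19 of the 39 genes were lower in each of the 4 comparisons with day 27: Anln, Bub1, Bub1b, Ccna2, Ccnb1, Cdc20, Cdk1, Cenpf, Ect2, Foxm1, Kif11, Mki67, Nusap1, Prc1, Tk1, Top2a, Tpx2, Ttk and Ube2c. Tk1 is the 1 replication gene among them. Aurka, Aurkb, Mcm7 and Pcna were called in none. For 16 genes every air lung of day 27 was below every air lung of day 7 (2.53% of all genes), for 3 below every air lung of day 1 (1.1%), and in exposed lungs for 4 (0.956%) and 5 (1.05%). Across 5 other settings the count between days 7 and 27 was 30 to 32 in air and 18 to 22 in exposed lungs, with 30 and 18 genes called in all of these settings. Birc5 and Tyms were the genes that fell in air without being called in each setting. Leaving out each lung in turn gave 29 to 32 lower in air and 16 to 22 in exposed lungs.

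The other genes of the cell cycle, taken from lists that were also chosen with earlier results of these lungs known, are given by their counts. Of 39 other mitosis genes tested, 29 fell and 0 rose in air between days 7 and 27 and all 39 were below 0, with a median of -0.57. In exposed lungs 10 fell, and against day 1 26 fell in air and 22 in exposed lungs. The kinesin gene Kif14 differed by -1.68 ± 0.26 in air, the centrosome kinase Nek2 by -1.53 ± 0.24 and the spindle gene Ckap2 by -0.91 ± 0.14. Cdc25b, a phosphatase that activates Cdk1, was lower in all 4 comparisons and differed by -0.43 ± 0.081 in exposed lungs against day 7. Of 29 other replication genes 6 fell (20.69%, near the 19.7% of all genes called lower) and 0 rose in air between days 7 and 27, with a median of -0.0035. Among the 6 were the methylation maintenance factor Uhrf1 (-0.71 ± 0.13) and the DNA polymerase genes Pola1 (-0.33 ± 0.062) and Pole (-0.60 ± 0.12). In exposed lungs 1 of the 29 fell. Clspn, a checkpoint mediator at the fork, rose from day 1 to day 27, by 0.43 ± 0.12 in air and 0.73 ± 0.12 in exposed lungs.

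Genes that act before S phase were mixed. Of 15 G1 cyclins, kinases and E2F factors, 7 fell and 2 rose in air between days 7 and 27 (edgeR called 39.7% of all genes). The G1 cyclin Ccnd2 differed by -0.53 ± 0.083 and its kinase Cdk6 by -0.76 ± 0.18, while the kinase Cdk4 rose by 0.27 ± 0.043. Cyclin D1, Ccnd1, was at 312 to 332 CPM (median 327) in air at day 7 and 314 to 375 CPM (median 338) at day 27, and was not called (0.079 ± 0.044). In exposed lungs Ccnd1 rose by 0.14 ± 0.044 between these days (adjusted p = 0.0270, edgeR). Of 17 inhibitors and quiescence genes tested, 4 rose and 3 fell in air between days 7 and 27 (41.18% called, near the 39.7% of all genes). The inhibitor Cdkn1b rose by 0.18 ± 0.038, and the pocket protein genes Rbl1 and Rb1 fell by 0.70 ± 0.12 and 0.34 ± 0.075. Cdkn1a, the p21 inhibitor, ran from 30.2 to 45.00 CPM with a median of 40.1 in air at day 1 and from 37.8 to 63.7 CPM with a median of 47.9 at day 27. It rose by 0.36 ± 0.13 in air and 0.40 ± 0.13 in exposed lungs over that interval, and its exposure effect was not called on any day (-0.091 ± 0.11, 0.10 ± 0.12 and -0.048 ± 0.13 at days 1, 7 and 27). Ccnd1 stood at -0.058 ± 0.047, -0.014 ± 0.035 and 0.046 ± 0.049 for the exposure at these days. In these lists the exposure was called at day 27 for Cdk4 (-0.21 ± 0.046), Pola1 (0.31 ± 0.078) and Rpa2 (-0.26 ± 0.071), of 96 genes tested. At that day edgeR called 5.52% of all genes, and 22 of the 96 had an unadjusted p under 0.05 (22.92%, against 26.7% of all genes). No gene of these lists was called at days 1 and 7, where 7 and 15 of the 100 genes tested in the 4 lists had an unadjusted p under 0.05 (7.0% and 15.0%, against 8.67% and 8.47% of all genes).

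Some markers of other cell types were called between the same days. Over all genes, edgeR called 39.7% in air (19.7% lower) and 12.1% in exposed lungs (5.69% lower) between them. Red cell precursor genes had a summed level of 1463 to 2067 CPM in air at day 7 and 823 to 1199 CPM at day 27, and of 1506 to 2727 and 742 to 1351 CPM in exposed lungs. Of the 5 tested 3 fell in air and 5 in exposed lungs. Fibroblast genes were at 1828 to 2511 CPM in air at day 7 and 1253 to 1467 CPM at day 27 (3 of 6 lower in air, and 3 lower and 1 higher in exposed lungs). B cell and T cell markers were on the high side in air at day 27, with 5 of 8 higher for each and 0 lower, and alveolar type 1 markers had 5 of 6 higher in air and in exposed lungs. Neutrophil markers had 1 of 7 higher in air. The part of these cells in the cell cycle values was not tested.

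The cell cycle genes went up and down together among the lungs of a group. In air at day 1, lung 7 had the lowest level of 24 of the 39 genes, and in exposed lungs of day 1 lung 3 had the lowest of 23. At day 7, air lung 5 had the highest level of 18 genes, exposed lung 5 the highest of 19 and exposed lung 8 the lowest of 17. At day 27, air lung 2 was lowest for 18 and exposed lung 3 for 17. The SD of log2 CPM within groups had a median of 0.26 over the 39 genes and 0.17 over all 14852 genes. It was 0.089 for Rrm1, the lowest, 0.11 for Mcm7 and 0.43 for Anln. With the group means removed, the level of Top2a had a Pearson correlation of 0.85 with the mean of the other 38 genes over the 48 lungs, Nusap1 of 0.83 and Mki67 of 0.82, while Mcm3 had 0.12, Aurkb 0.091 and Tyms -0.15. All genes of a library share its depth and tissue composition, which differ between libraries, and no test was made on these correlations.

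Outside the 39, the 10 genes most like their mean, among 14096 genes with at least 1 CPM on average, were Ckap2 (Pearson correlation 0.79 over 48 lungs, group means removed), Kif22, LOC100359539, Esco2, Kif18b, Espl1, Ndc80, Iqgap3, Kifc1 and Lmnb1 (0.68). Of these 6 stood in the list of other mitosis genes: Ckap2, Kif22, Esco2, Kif18b, Espl1 and Ndc80. Ckap2 ran from 6.61 to 9.53 CPM with a median of 7.93 in air at day 7 and from 3.08 to 4.91 CPM with a median of 4.42 at day 27, without overlap.

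Aurkb was unlike the rest. Over the 48 lungs it ran from 4.16 to 68.8 CPM, and 37 lungs were under 20 CPM, 2 between 20 and 39 CPM and 9 over 39 CPM. The lungs over 39 CPM were found in every group but the exposed lungs of day 1. Its SD within groups was 0.97 on the log2 scale, above that of 97.3% of all genes tested. Without it the exposed minus air difference in the mean of the cell cycle genes was 0.0077, -0.18 and -0.00059 at days 1, 7 and 27.

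The promoters of these genes were read because genes of this kind are known to share short elements. Late cell cycle promoters often carry a CHR element, bound by the DREAM complex in resting cells, next to CCAAT boxes bound by NF-Y, and promoters of replication genes often carry E2F motifs. RefSeq windows of the rat build GRCr8, from 250 bases before to 50 after a transcript start, were found for 31 of the 39 genes (32 windows, of which Kif2c has 2). They were searched on both strands for the CHR letters TTTGAA or TTCGAA, for CCAAT, and for the E2F letters TTTGGCGC, TTTCCCGC, TTTCGCGC or TTTGCCGC. Other spellings of these elements were not searched, so a window without a match may still hold one. Matches of different motifs may overlap. A match is a description of the letters and not a bound site.

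The stretches below are the 150 bases before the start in 4 mitosis genes that were lower in all 4 comparisons with day 27 and in 2 helicase genes, Mcm6 and Mcm7, that were not called between days 7 and 27. They are picked examples and do not stand for all the genes. Bub1, Ccnb1, Kif11 and Tk1, also lower in all 4 comparisons, had no match to the CHR letters searched in their windows. The stretches are written 5′ to 3′ on the strand of the gene, with CHR, CCAAT and E2F letters (or their complement) in capitals. The Cdk1 stretch is chr20:19265143-19265292 (plus strand), Mki67 is chr1:199952594-199952743 (minus), Top2a is chr10:84473094-84473243 (minus), Cdc20 is chr5:137255800-137255949 (minus), Mcm6 is chr13:42404353-42404502 (minus) and Mcm7 is chr12:22163179-22163328 (minus), all in GRCr8.
Cdk1: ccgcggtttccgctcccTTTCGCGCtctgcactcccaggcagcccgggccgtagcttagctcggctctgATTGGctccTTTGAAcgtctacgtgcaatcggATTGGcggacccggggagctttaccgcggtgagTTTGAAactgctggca
Mki67: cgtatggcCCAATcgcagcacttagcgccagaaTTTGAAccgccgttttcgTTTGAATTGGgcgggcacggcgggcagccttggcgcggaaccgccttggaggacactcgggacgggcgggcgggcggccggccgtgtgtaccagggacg
Top2a: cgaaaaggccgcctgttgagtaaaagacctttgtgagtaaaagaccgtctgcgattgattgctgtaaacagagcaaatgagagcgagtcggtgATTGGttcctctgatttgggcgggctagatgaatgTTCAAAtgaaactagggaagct
Cdc20: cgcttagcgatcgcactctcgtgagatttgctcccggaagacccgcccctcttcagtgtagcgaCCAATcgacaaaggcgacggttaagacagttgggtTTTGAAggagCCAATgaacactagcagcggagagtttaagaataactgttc
Mcm6: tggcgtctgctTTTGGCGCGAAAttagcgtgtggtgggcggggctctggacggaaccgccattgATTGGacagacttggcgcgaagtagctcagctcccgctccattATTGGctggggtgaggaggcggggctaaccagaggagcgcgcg
Mcm7: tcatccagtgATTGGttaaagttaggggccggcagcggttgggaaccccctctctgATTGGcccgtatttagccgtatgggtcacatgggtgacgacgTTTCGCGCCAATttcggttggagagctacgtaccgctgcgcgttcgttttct

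In Cdk1 the capitals mark an E2F match, then a CCAAT box on the other strand (ATTGG) before a CHR match, a further ATTGG, and a CHR match close to the start. Mki67 has CCAAT, a CHR match and a further CHR match that runs into an ATTGG, Top2a a CHR match on the other strand (TTCAAA) after an ATTGG, and Cdc20 a CHR match between CCAAT boxes. Mcm6 and Mcm7 have no CHR match in these stretches: each has CCAAT boxes with E2F matches, which in Mcm6 lie on both strands and overlap. Mcm7 has a CHR match farther from the start, at base -241, outside the stretch shown. Over the whole windows, a CHR match was in 14 of the 23 mitosis windows (60.87%) and 3 of the 9 replication windows (33.33%), against 19.74% of all 33469 windows. CCAAT was in 69.57% and 66.67%, against 37.49% of all. An E2F match was in 1 mitosis window (4.348%), that of Cdk1, and in 6 of 9 replication windows (66.67%), against 2.139% of all.

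A CHR match together with CCAAT was in 52.17% of the mitosis windows, 22.22% of the replication windows and 7.954% of all windows. The windows of these genes were richer in G and C (median 58.83% against 51.67% of all windows). Among the 15 genes with a window that fell in all 4 comparisons with day 27, 11 had a CHR match and 11 CCAAT. Among genes that fell in all 4, Bub1 and Tk1 had no match to any of the motifs. Melk, Kif2c and Aurka, the last called in none of the comparisons, had none either. Mcm7, also called in none, had a match to each of the 3.

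**Figure D5:**
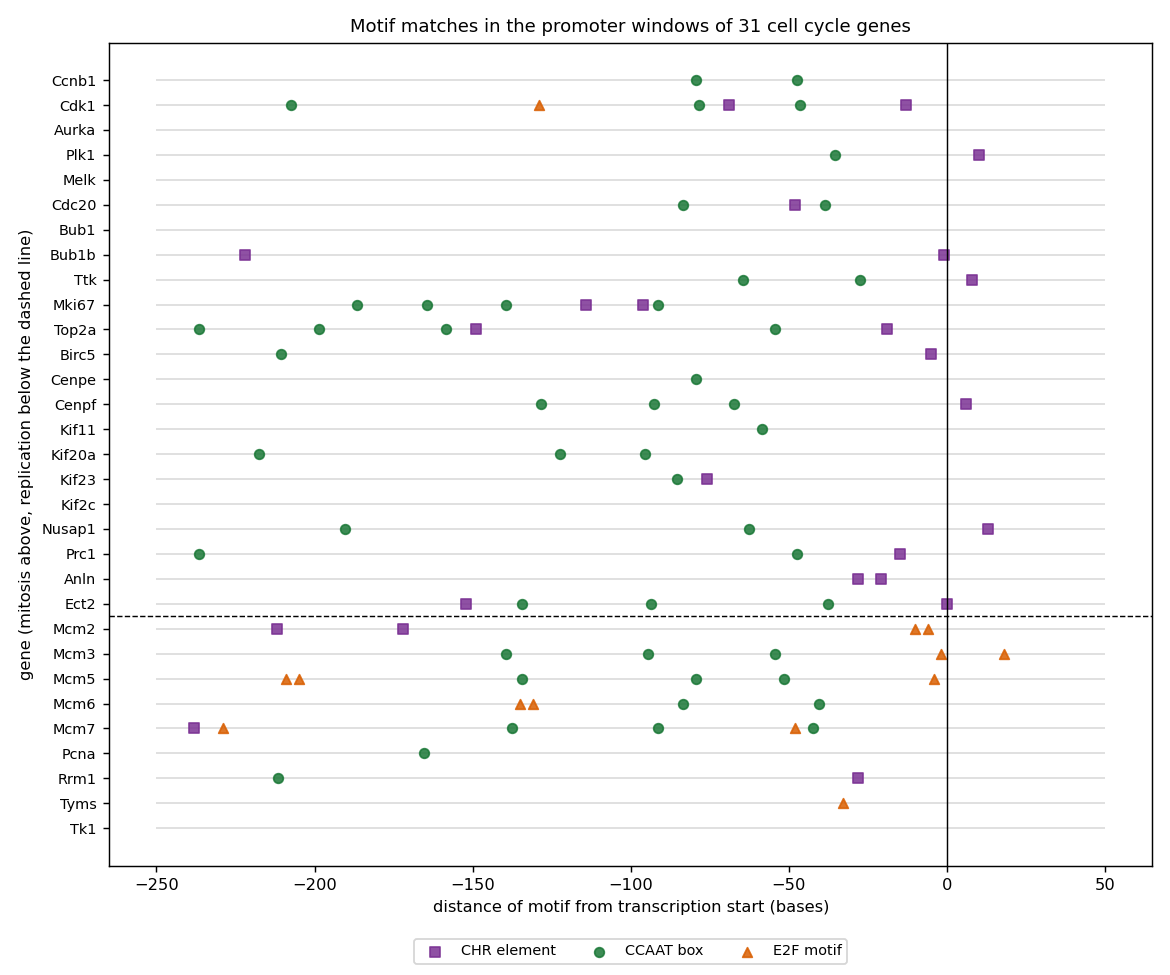
Position of each CHR, CCAAT and E2F match in the promoter windows of the 31 genes with a window, as distance in bases from the transcription start (0, vertical line). Mitosis genes are above the dashed line and replication genes below. CHR squares lie mostly above the line and within 100 bases of the start, and E2F triangles lie below it in Mcm2, Mcm3, Mcm5, Mcm6, Mcm7 and Tyms and above it in Cdk1 alone.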

How the data were processed

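The authors deposited expected counts per gene, 1 table per day, made with STAR 2.6.1d and Salmon 1.10.1 on Rnor_6.0 after trimming with Trim Galore 0.6.7 and cutadapt 3.4, per the submitters' processing notes. Of the deposited values 5.58% were not whole (tolerance 1e-06), and they were rounded. Totals ran from 9445675 to 14400317 per library. Each day was tested with edgeR 4.0.16 (R 4.3.3) by its robust quasi-likelihood test after TMM scaling and filterByExpr, with Benjamini-Hochberg adjustment over all genes tested and a threshold of 0.05. Contrasts between days and between exposure effects came from 1 fit of all 48 libraries. Ranges of 8 lungs show the spread between animals. The 95% intervals give the uncertainty of a fold change between groups, estimated from that spread, and not the range of single animals.

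The genes and lists were chosen with earlier results of these data known. Named genes were those called, the 6 with the smallest p per day, up to 5 called genes per contrast between days, and Mki67, Top2a, Ccnb1, Cdk1, Mcm2, Pcna and Rrm2 on every day. Further members are described by role. From the other lists, up to 3 called genes per comparison were named, with Cdkn1a and Ccnd1. Alternatives were RLE scaling, other filters, DESeq2 1.42.0, limma 3.58.1 (voom), a single fit of all libraries, close pairs of libraries summed, and each lung left out in turn. Fits of only the groups compared and the mean without Aurkb were chosen after seeing the data. On simulated counts the test recovered 32.8% of 1.25-fold, 77.6% of 1.5-fold and 87.9% of 2-fold changes for day 1 (14314 genes tested). These rates were 64.2%, 76.1% and 93.9% for day 7 (14259 genes tested), and 35.8%, 79.1% and 86.4% for day 27 (14192 genes tested). Each rate rests on only 66 or 67 changed genes among those tested, and none was taken for the cell cycle genes alone. The cell cycle genes varied more within groups (median SD of log2 CPM 0.26, against 0.17 over all genes). They also varied together from lung to lung, so the rates may be too high for them. Promoter windows came from RefSeq (GRCr8), and no coordinate of that build was joined to a count.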

Additional observations from a re-analysis of the deposited data

Results flagged for a closer look

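Single lungs stood far from the other 7 of their group in 11 of 168 sets of 8 values (6.548%), where chance gives about 1 in 20. Exposed lung 3 of day 1 was lowest for Kif20a (3.25 CPM, next 6.47), for Mcm2 (22.5 CPM, next 26.4) and for the replication mean (4.42 log2 CPM, next 4.60), and highest for Aurkb (31.3 CPM, next 14.8). Aurkb was also far above the others in air lung 2 of day 1 (59.5 CPM, next 18.7) and air lung 4 of day 27 (59.1 CPM, next 9.70). Exposed lung 8 of day 1 was highest for Pcna (83.1 CPM, next 71.5), and exposed lung 5 of day 7 for Rrm1 (57.4 CPM, next 52.8). The lowest values were those of air lung 8 of day 1 for Tk1 (7.53 CPM, next 11.3), air lung 2 of day 27 for Ttk (0.695 CPM, next 1.248) and air lung 7 of day 27 for Tyms (7.33 CPM, next 10.98).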

How the results depend on the processing

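No paired analysis was possible because the replicate numbers are animal numbers, which no groups share, and the cage pairs are not named. For the exposure effect, edgeR called 4, 0 and 783 genes at days 1, 7 and 27. Without a filter on low counts it called 2 at day 1 and 474 at day 27, with close pairs summed 0 and 31, and in the fit of all libraries 14, 1 and 2227. DESeq2 called 46, 26 and 1654. Leaving out each lung gave 0 to 17 genes at day 1 (17 without exposed lung 3), 0 to 11 at day 7 (11 without exposed lung 5) and 9 to 1926 at day 27 (9 without exposed lung 3, 1926 without air lung 2). Of the cell cycle genes, DESeq2 called 1 at day 7 and 2 at day 27, and the fit of all libraries 2 at day 27, against 0 by edgeR day by day. With each lung left out the counts were 0 to 1 at day 27 (1 without air lung 2 or exposed lung 2), 0 to 1 for the effect at day 27 against day 1 (1 without air lung 2), 0 to 1 from day 1 to day 7 in air (1 without air lung 8) and 2 to 5 in exposed lungs (5 without exposed lung 5). The sign of small fold changes turned with single lungs left out: at day 1 Mki67 ranged from -0.13 to 0.020, Top2a from -0.088 to 0.047 and Ccnb1 from -0.0089 to 0.14, and at day 7 Pcna from -0.042 to 0.0081. Over all alternatives run, 1278 fold changes of named genes kept direction and call, 13 turned, 7 gained a call and 6 lost it, and 323 of 372 counts stayed within 1.5 times. Genes uncalled in both settings are among those kept, and counts of 0 in both among those that stayed. With 1 lung left out, the number of all genes called for the exposure stayed within 1.5 times in 1 of 16 settings at day 1. It did so in 13 of 16 at day 7 and 3 of 16 at day 27. The causes were not tested. The mean level was lowest for Ttk, Melk and Birc5.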

Other observations

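The level of Aurkb over the 48 lungs, with group means removed, was compared with 14134 other genes after its spread had been seen. The gene most opposed to it was Pfas, a gene of purine synthesis, with a Pearson correlation of -0.74 and a Spearman correlation of -0.66 (-0.72 by Pearson without the 2 farthest lungs). Pfas lies on the same chromosome as Aurkb in GRCr8, with 1 protein-coding gene between them. The genes next most opposed were Plekhb2 (-0.61 by Pearson, -0.52 by Spearman) and Cytip (-0.59 and -0.45), neither on that chromosome. The genes most like Aurkb were Cldn7 (0.62 and 0.55) and Zmynd15 (0.59 and 0.39), on that chromosome with 58 and 82 protein-coding genes between, and Tubb4b (0.54 and 0.58), which is not. All genes of a library share its depth and tissue composition, which differ between libraries, and no test was made on these values.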
